A study of Mus musculus with 35 samples.

Results

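Propylthiouracil (PTU), a drug that blocks the synthesis of thyroid hormone, was set against no exposure in the testes of Akt1 heterozygous mice of postnatal day 25. The comparison holds 6 of the 35 arrays of the series, 3 from PTU-exposed and 3 from unexposed Akt1 heterozygous males of strain C57BL6, 1 mouse per array, and the 6 arrays were chosen by genotype, exposure and age alone. The study crossed Akt1 genotype (homozygous mutant, heterozygous and wild type) with PTU exposure at postnatal days 15 and 25 and measured total RNA of the testis on Affymetrix arrays, with another array type at day 15. The other 4 groups of day 25 (3 exposed and 3 unexposed wild type arrays, 2 exposed and 3 unexposed homozygous arrays) and the heterozygous groups of day 15 (3 exposed and 3 unexposed arrays) are used below only beside the heterozygous values. Per the design text, the authors did not include 1 more exposed homozygous array for its quality, and it was not analysed here. The altered part of Akt1, and the dose, route and timing of PTU, are not given in the sources used here.

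In the first wave of mouse spermatogenesis the germ cells advance almost together, so the age of the animal sets the most advanced cell present. Spermatogonia give rise to meiotic spermatocytes, then to round spermatids, and last to elongating spermatids, in which transition proteins and then protamines replace histones on the DNA. Thyroid hormone acts in the immature testis mainly on Sertoli cells, the somatic cells that nurse the germ cells, where it ends proliferation and promotes maturation, and AKT1 is a kinase of the PI3K pathway for growth and survival.

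Correlations between arrays of a heterozygous group were high. They rest mainly on differences in level between genes, so spermatid genes could still differ widely within a group, as given below. The lowest correlation between arrays of a group, over the tested genes, was 0.992 among exposed and 0.989 among unexposed heterozygous testes, and no 2 arrays of day 25 held the same values. Germ cell, Sertoli, Leydig and myoid markers of the testis were present, with array means of an 11-gene testis list between 10.31 and 10.61 in exposed and between 10.57 and 10.80 in unexposed heterozygous arrays (log2 intensity). Exposed array 2 stood apart in genes of neighbouring tissue, with Spink8, an epididymal gene, at 10.07, against 5.86 and 6.34 in the other exposed arrays and 6.06, 6.06 and 6.30 in the unexposed ones. Spink10 likewise was at 7.25 in exposed array 2 and between 3.71 and 4.15 in the other 5 arrays. The mean of the poly-A control probe sets was 7.15, 6.90 and 6.39 in exposed arrays 1 to 3 and 6.16, 6.00 and 6.66 in unexposed arrays 1 to 3. Counts of genes are therefore also given without exposed array 2 and with the poly-A mean as a covariate for most lists below.

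The brightest probe set of Akt1 read 9.46, 9.52 and 9.45 in the exposed heterozygous arrays, against 9.45, 9.34 and 9.17 in the unexposed ones. The difference of 0.16 ± 0.08 (log2, SE) did not pass the test (limma with Benjamini-Hochberg adjustment, adjusted p = 0.206). The group means were 9.49 in exposed and 9.36 in unexposed homozygous testes and 9.49 in exposed and 9.48 in unexposed wild type testes, so this probe set did not separate the genotypes. A dimmer probe set of Akt1 read between 8.28 and 8.91 in the 6 heterozygous arrays of both exposures, between 8.01 and 8.56 in the 5 homozygous arrays and between 8.92 and 9.33 in the 6 wild type arrays. In it every wild type array lay above every heterozygous and homozygous array, and the heterozygous arrays overlapped the homozygous ones. Neither the 3 other Akt1 probe sets, with differences of 0.18, -0.06 and 0.02, nor the brightest Akt2 probe set, with 0.14, passed the test. A dimmer probe set of Akt2 also read lower in homozygous (8.08 to 8.78) than in wild type arrays (8.99 to 9.21). Its heterozygous arrays, from 8.38 to 9.21, overlapped both, so lower readings in homozygous arrays were not seen in Akt1 alone.

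PTU-exposed heterozygous testes had lower RNA of most late spermatid genes and moderately higher RNA of some genes of spermatogonia, early meiosis, Sertoli cells and the extracellular matrix. Of 16304 genes tested, 3042 passed the threshold of an adjusted p under 0.05 (18.7%), and 5386 (33%) had an unadjusted p under 0.05. There were 1868 rises (11.5%) and 1174 falls (7.2%). In RNA of whole testis, fewer cells of a type and less RNA per cell cannot be told apart. The p-values and standard errors rest on a spread between arrays pooled over all 6 groups of day 25, not on the heterozygous arrays alone. With the groups compared alone, 2354 genes passed. The labels do not say whether mice shared a litter.

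Rises and falls differed in size. Rises had a median of 0.41 on the log2 scale and a largest value of 1.40, and 4 of the 1868 exceeded 2-fold. Falls had a median of -0.99 and reached -4.32, and 583 of the 1174 exceeded 2-fold. Across all tested genes the median difference was 0.06. With the tested genes in 4 equal sets of 4076 by unexposed level, the share of rises was 2.85%, 11.8%, 19.2% and 12% in order of level, lowest first, and the share of falls was 3.83%, 7.43%, 8.51% and 9.03%. The count of 3042 fell to 956 without exposed array 2, to 874 without unexposed array 2 and to 1668 without unexposed array 3, and it was 1251 with the poly-A mean as a covariate. In these settings, in the same order, rises over all genes numbered 424, 351, 981 and 562, and falls 532, 523, 687 and 689. The list counts below for these settings are to be read beside these totals.

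**Figure D1:**
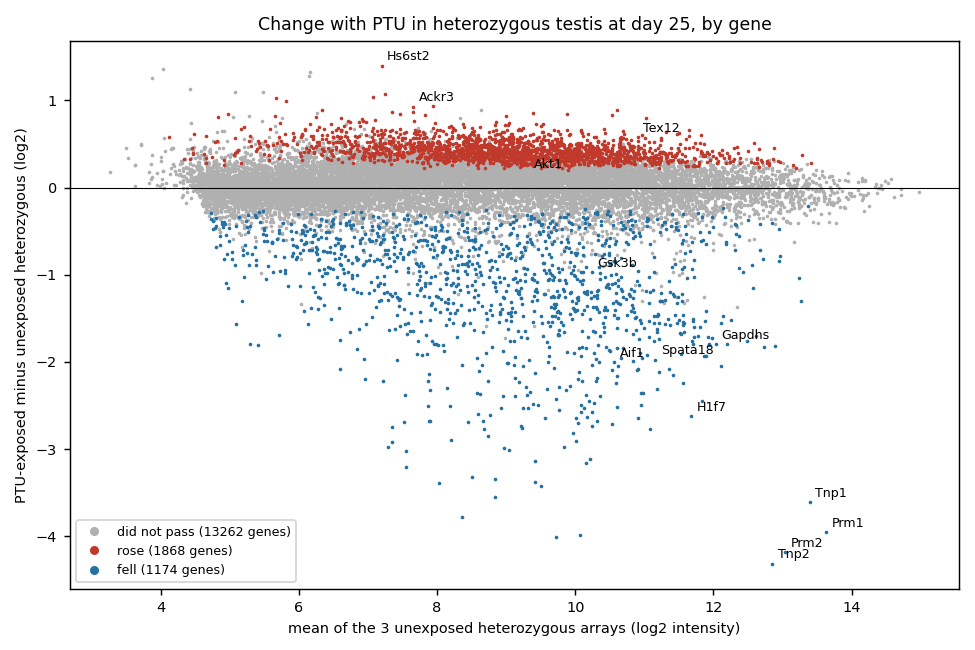
Each point is 1 of the 16304 tested genes, with its mean log2 intensity in the 3 unexposed heterozygous arrays across and its log2 difference, exposed minus unexposed, up. Falls reach -4.32 for Tnp2, a gene of high unexposed level, while rises end at 1.40 for Hs6st2.

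The transition proteins Tnp1 and Tnp2 and the protamines Prm1 and Prm2, the basic proteins that pack sperm DNA, are the clearest case of the decrease, so their promoters are shown here. The sequences are the 250 bases before the start of each gene from RefSeq on build GRCm38.p6, all read 5′ to 3′ on the gene's own minus strand. They lie at chr1:73015900-73016149 (Tnp1), chr16:10788656-10788905 (Tnp2), chr16:10796824-10797073 (Prm1) and chr16:10792106-10792355 (Prm2), so 3 of the 4 are neighbours on chromosome 16. Capitals mark TGANNTCA, a loose form of the cAMP response element TGACGTCA, an element bound by CREM, which in the mouse activates spermatid genes.
Tnp1: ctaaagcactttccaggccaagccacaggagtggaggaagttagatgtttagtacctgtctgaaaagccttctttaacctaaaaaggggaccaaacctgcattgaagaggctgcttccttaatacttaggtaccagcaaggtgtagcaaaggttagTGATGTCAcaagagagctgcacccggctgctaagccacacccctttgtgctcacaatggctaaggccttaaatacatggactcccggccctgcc
Tnp2: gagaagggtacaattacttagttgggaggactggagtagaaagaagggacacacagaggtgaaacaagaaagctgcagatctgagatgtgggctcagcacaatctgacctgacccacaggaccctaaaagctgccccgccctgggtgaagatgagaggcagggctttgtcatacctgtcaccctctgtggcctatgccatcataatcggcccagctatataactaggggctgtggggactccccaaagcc
Prm1: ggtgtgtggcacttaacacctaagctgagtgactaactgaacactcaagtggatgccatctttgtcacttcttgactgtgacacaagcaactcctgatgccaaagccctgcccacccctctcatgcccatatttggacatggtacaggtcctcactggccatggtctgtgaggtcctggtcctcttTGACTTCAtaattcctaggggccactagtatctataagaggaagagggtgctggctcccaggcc
Prm2: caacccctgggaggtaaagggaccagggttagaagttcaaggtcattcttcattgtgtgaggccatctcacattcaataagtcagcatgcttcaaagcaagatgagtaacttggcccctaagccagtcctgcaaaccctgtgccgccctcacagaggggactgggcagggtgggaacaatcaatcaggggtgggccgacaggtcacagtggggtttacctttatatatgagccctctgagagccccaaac

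The loose motif was found once in Tnp1, beginning 94 bases before the start, and once in Prm1, beginning 64 bases before it, and these letters were not found in the Tnp2 and Prm2 windows. The full element TGACGTCA was in none of the 4. Both motifs read the same on both strands, and every full element is also a match of the loose one. Among all 32851 RefSeq promoter windows of the same length, 11.9% held the loose motif and 1.55% the full one. In windows of genes that fell with PTU, the loose motif was in 263 of 1228 (21.4%), against 129 of 1893 (6.81%) in windows of genes that rose and 9.7% over windows of all tested genes. It was in 11 of the 30 windows of the elongating spermatid list and in 9 of the 33 windows of the round spermatid list. The full element did not show that order, with 2.04% for genes that fell, 1.74% for genes that rose and 2.22% over windows of all tested genes. The loose motif was chosen after the values and windows had been seen, and base composition was not compared.

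The RNA of these 4 packaging genes was lower in every exposed array than in any unexposed array. Tnp2 read 9.44, 6.78 and 9.39 in the exposed arrays, against 11.66, 13.34 and 13.55 in the unexposed arrays (log2 intensity). Prm2 read 9.70, 7.33 and 9.55 in exposed, against 11.81, 13.41 and 13.90 in unexposed testes. Exposed array 2 was the lowest in both genes and unexposed array 1 the lowest of its own group. Prm1 had 10.67, 7.74 and 10.62 with exposure, against 12.70, 13.98 and 14.21 without. Tnp1 had 10.65, 8.10 and 10.60 with exposure, against 12.29, 13.70 and 14.19 without. The log2 differences were -4.32 ± 0.86 for Tnp2, -4.18 ± 0.79 for Prm2, -3.95 ± 0.82 for Prm1 and -3.61 ± 0.74 for Tnp1 (SE, n = 3 each), with limma adjusted p between 0.00453 and 0.00644. The other 2 probe sets of Prm1 and the other probe set of Tnp1 fell as well, with differences of -4.54, -4.20 and -1.75, each passing in the fit of all probe sets.

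Of the 26 tested members of the elongating spermatid list, 25 fell and none rose, with a median of -1.96, against 7.2% falls and a median of 0.06 over all genes. All 26 had every exposed array below every unexposed array, against 14.4% of all genes (40.9% did not overlap in either direction and 26.5% in the upward one). Odf2, of the outer dense fibres of the sperm tail, was the member that did not pass, at -0.41 (adjusted p = 0.116). H1f7, a linker histone of spermatids, read 9.44, 8.09 and 9.64 in exposed and 10.88, 11.92 and 12.24 in unexposed arrays, a difference of -2.62. Spata18, which acts in the quality control of mitochondria, read 9.31, 8.68 and 9.56 in exposed and 10.40, 11.52 and 11.56 in unexposed arrays, a difference of -1.97 ± 0.32. Neither gene overlapped between the groups. Falls of the same kind were those of Txndc2, a thioredoxin of sperm (-2.49), Fscn3, a testis fascin that bundles actin (-2.59), and Fam71b (-3.98). Akap4 of the fibrous sheath and Odf1 of the outer dense fibres, both named after their values were seen, fell, with differences of -1.81 and -1.76. With the list averaged in each array, the exposed arrays stood at 9.72, 8.60 and 9.92, against 10.90, 12.01 and 12.16 for the unexposed arrays. The exposed arrays had no value above the lowest unexposed one, and exposed array 2, which also had the high Spink8, was the lowest. Without that array 16 members fell, and the number was 15 without unexposed array 2, 16 without unexposed array 3 and 15 with the poly-A mean as a covariate.

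**Figure D2:**
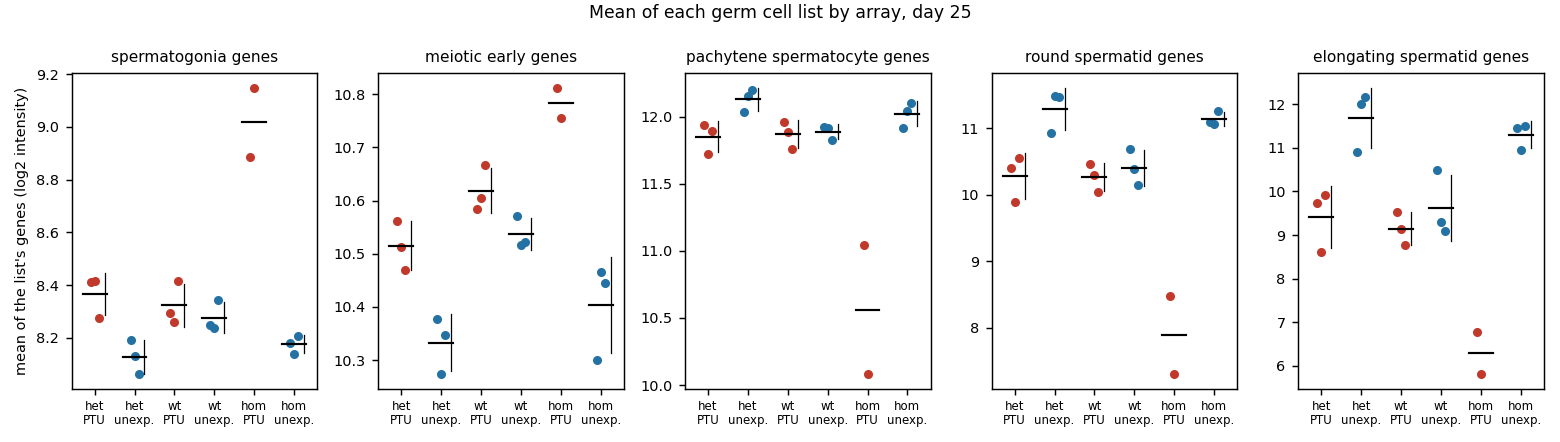
Mean log2 intensity of 5 germ cell stage lists in each array of day 25, with PTU-exposed groups in red left of unexposed groups in blue for heterozygous (het), wild type (wt) and homozygous (hom) testes, a black line for the group mean and a thin bar for the SD in groups of 3; the scales differ between panels. The elongating spermatid means are between 8.60 and 9.92 in exposed and between 10.90 and 12.16 in unexposed heterozygous testes, and the spermatogonial and early meiotic means lie higher in exposed ones.

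Round spermatid genes were lower too, but fewer of them passed. Of 29 tested members, 15 fell and none rose, with a median of -0.93, against 7.2% falls over all genes. In 22 of them all exposed arrays lay below all unexposed arrays, against 14.4% of all genes. Tssk6, a spermatid kinase needed for male fertility in mice, read 7.55, 6.43 and 7.5 in exposed and 8.86, 10.49 and 10.57 in unexposed arrays, a difference of -2.82. Izumo1, the sperm protein that binds the egg, read 9.02, 8.32 and 9.50 in exposed and 9.97, 10.76 and 10.56 in unexposed arrays, a difference of -1.48. In both genes the groups were apart, and exposed array 2 was the lowest. Cst13, a cystatin (-3.37), Dnajb8, a chaperone (-2.10), and Spaca4, an acrosomal membrane protein (-1.22), fell too. Catsper1, a calcium channel of the sperm tail named after its values were seen, fell by 1.24. Crem itself did not pass, at -0.43 (adjusted p = 0.188). The list counted 8 falls without exposed array 2, 8 without unexposed array 2, and 9 without unexposed array 3 or with the poly-A covariate.

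Most genes of pachytene spermatocytes did not pass. Of 29 tested members, 4 fell and 2 rose, against 7.2% falls and 11.5% rises over all genes. The median of the list was -0.15, with 22 of the 29 differences below 0. The falls were Hspa1l, a testis member of the HSP70 chaperones, at -2.67, Acrv1, an acrosomal protein that the round spermatid list also holds, at -1.46, Ttll9, a tubulin-modifying enzyme, at -0.79, and Cdc25c, a phosphatase that starts division, at -0.44. The rises were Sycp3 of the synaptonemal complex at 0.34 and Cks2, a partner of cyclin-dependent kinases, at 0.22. Array means of the list lay between 11.72 and 11.94 in exposed and between 12.04 and 12.20 in unexposed testes, apart by a smaller distance than the spermatid lists. Cdc25c and Cks2 were named after their values were seen. Without exposed array 2, without unexposed array 2 or with the poly-A covariate, 1 member fell and none rose, and 2 fell and none rose without unexposed array 3.

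Some genes of earlier germ cells rose, while most did not pass. Of 27 tested genes of early meiosis, 7 rose and 1 fell, with a median of 0.17, against 11.5% rises over all genes. Tex12, a component of the synaptonemal complex that joins paired chromosomes, read 11.56, 11.40 and 11.50 in exposed, against 10.93, 10.92 and 10.87 in unexposed arrays. The spread within groups was small and the difference was 0.58 ± 0.08 (adjusted p = 0.00421). Hormad1, which marks unpaired chromosome axes, read 11.37, 11.27 and 11.15 in exposed, against 10.91, 10.53 and 10.64 in unexposed arrays. Sycp1, the transverse filament of the same complex, rose by 0.52 and Tex101, a germ cell surface protein, by 0.42. The fall was that of Rec8, the cohesin of meiosis, at -0.51, named after its values were seen, and it was lost in 10 of 16 alternative settings.

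Of 23 tested spermatogonial genes, 7 rose and 1 fell, against 11.5% rises and 7.2% falls over all genes, and the median was 0.34. Lin28a, an RNA-binding protein of undifferentiated cells, read 7.81, 7.79 and 7.5 in exposed, against 7.01, 6.96 and 6.77 in unexposed arrays, with a difference of 0.78. Foxo1, a transcription factor that AKT excludes from the nucleus and that spermatogonial stem cells need, read 9.04, 9.01 and 8.87 in exposed, against 8.67, 8.27 and 8.39 in unexposed arrays, with a difference of 0.53. All 3 of its probe sets passed. Rhox13 rose by 0.55, and Sall4 and Id4, both factors of spermatogonial stem cells and named after their values were seen, rose by 0.50 and 0.36. Lhx1, another stem cell factor, fell by 0.59. Dazl, an RNA-binding protein of germ cells in general, read 12.71, 12.94 and 12.77 in exposed, against 12.46, 12.18 and 12.39 in unexposed arrays, a rise of 0.46. None of these rises reached 2-fold. The number of spermatogonial rises was 1 without exposed array 2 and 2 without exposed array 1, unexposed array 2 or unexposed array 3, and that of early meiosis was 3 without exposed array 2 or unexposed array 2. With the poly-A covariate these numbers were 2 and 3.

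**Figure D3:**
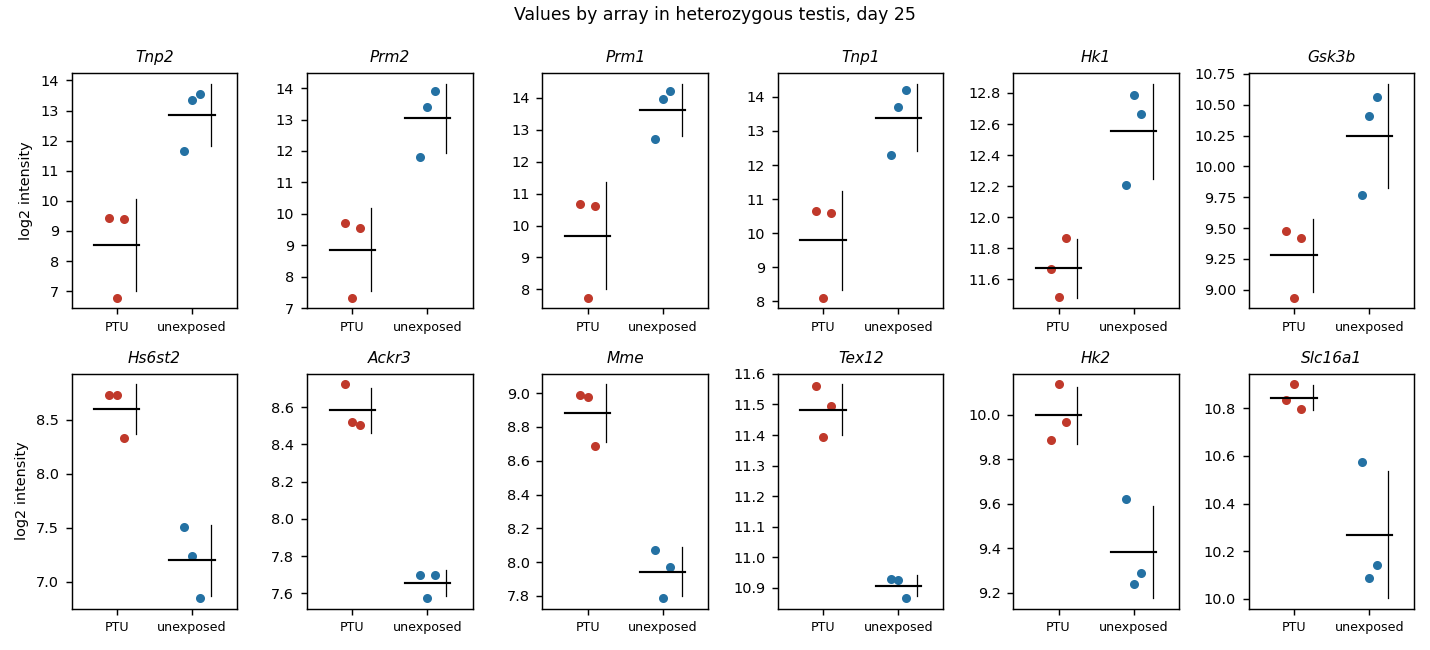
Log2 intensity of genes that fell and of genes that rose in each heterozygous array of day 25, exposed left of unexposed, with a line for the group mean and a bar for the SD (n = 3 each). The exposed arrays lie below the unexposed ones for genes of the upper panels such as Tnp2 (-4.32) and above them for Hs6st2 (1.40) and Tex12 (0.58). The scales differ between panels.

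Some markers of Sertoli cells were moderately higher, and most did not pass. Of 18 tested genes of immature Sertoli cells, 6 rose and none fell (median 0.24), and of 16 genes of mature Sertoli cells, 5 rose and none fell (median 0.27), against 11.5% rises over all genes. Ccnd1, the cyclin that drives entry into the cell cycle, read 8.53, 8.77 and 8.68 in exposed, against 8.16, 7.96 and 7.88 in unexposed arrays. Kitl, the ligand of the KIT receptor of germ cells, read 10.34, 10.23 and 10.16 in exposed, against 9.81, 9.29 and 9.81 in unexposed arrays. The groups were apart in both genes, with differences of 0.66 and 0.60. Inhbb, the beta B subunit of inhibin and activin, rose by 0.64 and Fshr, the receptor of follicle-stimulating hormone, named after its values were seen, by 0.41. Among the mature markers, Cldn11, the claudin of the blood-testis barrier, read 11.03, 11.35 and 11.25 in exposed, against 10.74, 10.40 and 10.83 in unexposed arrays, a rise of 0.56. Dhh, the hedgehog ligand of Sertoli cells, rose by 0.45, Ctsl, a secreted protease, and Gata1, a transcription factor named after its values were seen, by 0.37 each, and Cst12, a cystatin, by 0.31. Without exposed array 2, 3 immature and 1 mature marker rose. Without unexposed array 2, 1 of each rose, and without unexposed array 3, 4 and 2 did. With the poly-A covariate the numbers were 4 and 4.

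Among 37 tested genes of the cell junctions of the barrier, 8 rose and 2 fell (median 0.28). Over all genes, 11.5% rose and 7.2% fell. Gja1, the connexin 43 that couples Sertoli and germ cells, read 11.23, 11.56 and 11.26 in exposed, against 10.92, 10.66 and 10.84 in unexposed arrays, a rise of 0.55 ± 0.10. Gjc1, another connexin, rose by 0.52. The falls were Cldn13 at -0.67 and Patj, a scaffold of tight junctions named after its values were seen, at -0.65. The other probe sets of Patj stood at 0.03 and 0.19 and did not pass. The rises numbered 2 without exposed array 2, 1 without unexposed array 2, and 4 without unexposed array 3 or with the poly-A covariate.

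The extracellular matrix list had the largest share of rises of the 27 lists, with 12 of 31 tested members and no fall. Over all genes 11.5% rose and 7.2% fell. The median of the list was 0.48. Col4a1, a chain of the basement membrane collagen, read 10.48, 10.85 and 10.87 in exposed, against 10.08, 9.75 and 9.83 in unexposed arrays. Its groups did not overlap and the difference was 0.85 ± 0.17 (adjusted p = 0.00567). Its partner chain Col4a2 rose by 0.56, and Nid1 and Lamb1, a nidogen and a laminin chain of the same membrane, by 0.66 and 0.65. The other probe sets of Col4a1 (0.45), Nid1 (0.50) and Lamb1 (0.69 and 0.42) were also above 0 but did not pass. Col3a1, a fibrillar collagen of the interstitium named after its values were seen, read 10.98, 12.03 and 11.49 in exposed, against 11.12, 10.34 and 10.36 in unexposed arrays, so that 1 exposed array lay below 1 unexposed array although the gene passed (0.89, adjusted p = 0.0452). The call of Col3a1 was lost in 10 of 16 alternative settings, and its other probe set, at 1.08, did not pass. Among 13 genes of the peritubular myoid cells, which wrap the tubules, 5 rose, including Acta2 at 0.59 and Myh11 at 0.58, the smooth muscle actin and myosin, Tpm1 at 0.47, Myl9 at 0.35 and Mylk, named after its values were seen, at 0.41. Actg2, the gamma actin of smooth muscle, was the 1 fall, with 8.53, 8.42 and 8.80 in exposed and 9.26, 10.29 and 10.34 in unexposed arrays (-1.38). Exposed array 2, with its high Spink8, was the highest of all for Myh11 at 9.79, with the other exposed arrays at 9.05 and 9.18 and the unexposed arrays between 8.67 and 8.89. Without it, 2 matrix genes and no myoid gene rose, and with the poly-A mean as a covariate 3 and 0 did. Without unexposed array 2, 3 and 0 rose, and without unexposed array 3, 4 and 3.

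**Figure D4:**
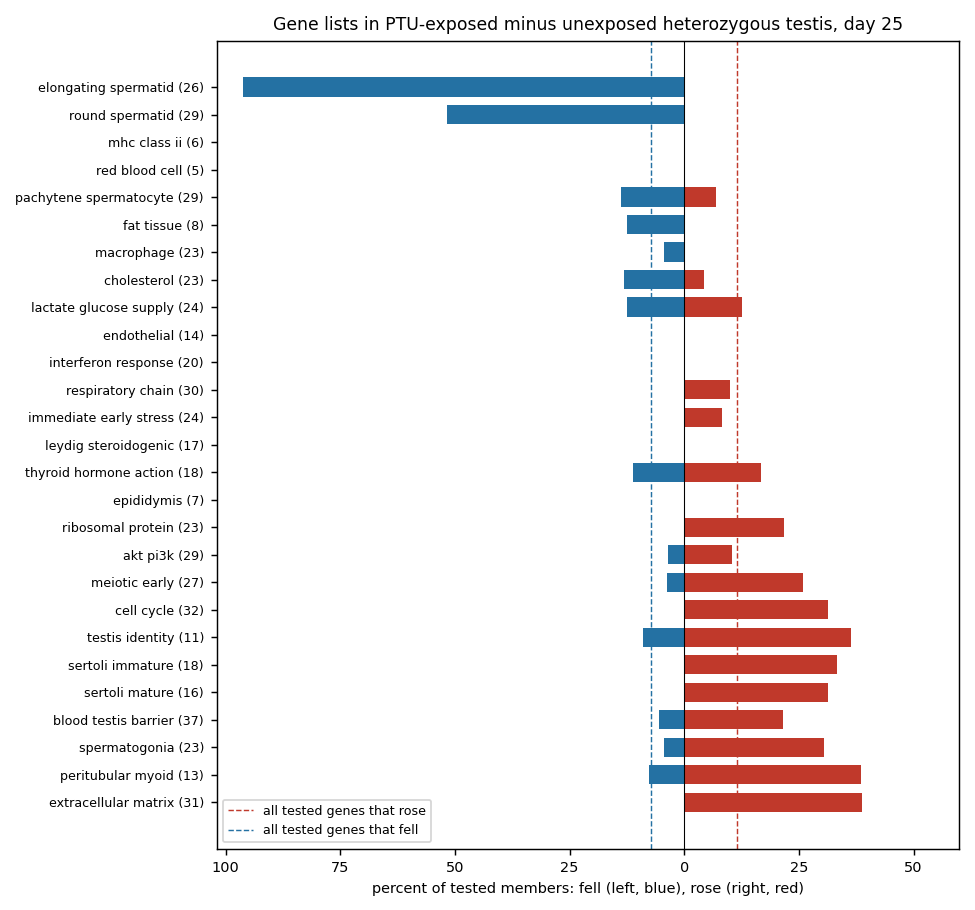
Percent of the tested members (their number in brackets) of each gene list that rose (right, red) or fell (left, blue) with PTU in heterozygous testis at day 25, with dashed lines at the shares over all tested genes (11.5% and 7.2%). The elongating spermatid list fell almost whole (25 of 26), the round spermatid list by 15 of 29, and the matrix list rose by 12 of 31.

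Of 32 cell cycle genes, 10 rose and none fell (median 0.17), against 11.5% rises over all genes. The members named by their p were Ccne2, the cyclin of entry into DNA replication, at 0.72, and the subunits of the replicative helicase Mcm3 at 0.68, Mcm2 at 0.52 and Mcm5 at 0.49. Mcm3 read 9.74, 9.94 and 9.92 in exposed, against 9.44, 9.17 and 8.97 in unexposed arrays, without overlap. Of 23 genes of ribosomal proteins, 5 rose, Rps4x at 0.57, Rps6 at 0.42, Rps3 at 0.28, Rpl19 at 0.26 and, named after its values were seen, Rpl6 at 0.24, and all 23 differences were above 0. Of 30 genes of the respiratory chain, 3 rose, Ndufa1 at 0.40, Uqcrc2 at 0.39 and Sdhc at 0.31, close to the share over all genes. No ribosomal gene rose without exposed array 2, without either of unexposed arrays 2 and 3, or with the poly-A covariate, and 3, 2, 5 and 5 cell cycle genes did in these settings. Rises over all tested genes numbered 424, 351, 981 and 562 there, against 1868 in the reported fit.

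Of 24 tested genes of energy supply, 3 rose and 3 fell (median 0.03), against 11.5% rises and 7.2% falls over all genes. Spermatids hold their own forms of glycolytic enzymes, while Sertoli cells export lactate to the germ cells. Gapdhs, the sperm form of glyceraldehyde phosphate dehydrogenase, read 10.17, 9.77 and 10.77 in exposed, against 11.38, 12.45 and 12.26 in unexposed arrays, a fall of 1.80 on the log2 scale. Hk1, a hexokinase with a sperm form, read 11.67, 11.48 and 11.86 in exposed, against 12.21, 12.79 and 12.66 in unexposed arrays (-0.88). Both were apart between the groups. Hk2, the hexokinase of many somatic cells, read 9.89, 10.14 and 9.97 in exposed, against 9.62, 9.24 and 9.29 in unexposed arrays, a rise of 0.61. Slc16a1, a lactate carrier, read 10.84, 10.90 and 10.80 in exposed, against 10.58, 10.09 and 10.14 in unexposed arrays, a rise of 0.58. Pdha1, of the pyruvate dehydrogenase complex, rose by 0.42, and Slc16a7, another carrier, fell by 0.88, both named after their values were seen. The call of Slc16a7 was lost in 11 and that of Pdha1 in 5 of 16 alternative settings, and the other probe set of Pdha1 did not pass, at 0.29. The other 18 members did not pass. The list counted 2 rises and 2 falls without exposed array 2, without unexposed array 3 or with the poly-A covariate, and 2 rises and 1 fall without unexposed array 2.

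Of 29 tested genes of the AKT and PI3K pathway, 3 rose and 1 fell (median 0.16), a share near that over all genes. Besides Foxo1, the rises were Rictor, of the complex that activates AKT, at 0.49 and Rheb, which activates mTOR complex 1, at 0.45. Rictor read 8.94, 9.15 and 9.0 in exposed, against 8.60, 8.37 and 8.66 in unexposed arrays. Its other probe sets stood at 0.31, 0.12, 0.06 and -0.10 and did not pass. The fall was Gsk3b, a kinase that AKT inhibits, with 9.48, 8.94 and 9.42 in exposed and 9.77, 10.41 and 10.56 in unexposed arrays, a difference of -0.97 ± 0.19. That value holds for its brightest probe set only. The 5 others did not pass, with differences of 0.35, 0.30, 0.09, -0.28 and -0.36. The list counted 1 rise without exposed array 2 or unexposed array 2, and 2 without unexposed array 3 or with the poly-A covariate.

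Of 18 tested genes of thyroid hormone action, 3 rose and 2 fell (median 0.09), against 11.5% rises and 7.2% falls over all genes. Thra, the receptor that binds the hormone in Sertoli cells, read 9.29, 9.23 and 9.07 in exposed, against 8.84, 8.58 and 8.74 in unexposed arrays, a rise of 0.48 ± 0.12 (adjusted p = 0.0160). Its other 2 probe sets did not pass (0.24 and 0.22), and the rise was lost in 4 of 16 alternative settings. Ncoa2, a coactivator of nuclear receptors, rose by 0.36, while its other 3 probe sets stood at -0.06, -0.24 and -0.33 and did not pass. Cirbp, an RNA-binding protein named after its values were seen, rose by 0.45, a call lost in 11 of 16 alternative settings. Rxra, the partner of the hormone receptors, fell by 0.70, with its other 2 probe sets at -0.25 and 0.18, neither passing. Nrgn, a calmodulin-binding protein induced by the hormone in brain, fell by 0.75. Klf9 and Hr, both induced by thyroid hormone in other tissues, did not pass, at 0.22 and 0.03. Hr read 6.92, 6.88 and 6.42 in exposed, against 6.91, 6.86 and 6.37 in unexposed arrays, so the 2 groups covered nearly the same range. No member of the list passed without exposed array 2 or without unexposed array 2, and 1 rose and 1 fell with the poly-A covariate.

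No gene of the Leydig cells, the makers of testosterone, passed in limma among 17 tested (median 0.08), against 18.7% of all genes. An unadjusted p under 0.05 was found for 3 of them, against 33% of all genes. Hsd17b3, which makes testosterone from androstenedione, read 6.65, 6.78 and 7.82 in exposed, against 8.12, 7.92 and 8.87 in unexposed arrays (-1.22 ± 0.45, adjusted p = 0.0696). All exposed arrays lay below all unexposed ones, but by little. Cyp17a1, the enzyme that makes androgen precursors, named after its values were seen, read 8.48, 11.22 and 12.12 in exposed, against values between 11.29 and 12.30 in the unexposed arrays, with 1 low exposed array and overlap in the rest (-1.26, adjusted p = 0.30). Star, which carries cholesterol into mitochondria and was chosen in the same way, was lowest in that array too, at 7.78, with 8.78 and 9.04 in the other exposed arrays and 8.88, 8.26 and 9.02 in the unexposed arrays. Hsd3b1, of an earlier step, stood at 0.42 (adjusted p = 0.101). Of 23 cholesterol genes, 1 rose and 3 fell, against 11.5% rises and 7.2% falls over all genes. The rise was Abcg1, a sterol exporter, at 0.40. The 3 falls were Lipe, the hormone-sensitive lipase needed for spermatogenesis, at -0.95, and Cyp51 and Fdft1, enzymes of sterol synthesis, at -0.63 and -0.42. Lipe read 8.57, 8.57 and 8.67 in exposed, against 9.06, 9.85 and 9.74 in unexposed arrays, without overlap. The calls of Abcg1, Fdft1 and Cyp51 were lost in 7, 7 and 6 of 16 alternative settings and that of Lipe in none. The other probe sets of Cyp51 stood at 0.15 and -0.05, that of Abcg1 at 0.01 and those of Fdft1 at -0.30, 0.05 and -0.06. None of these passed. The list counted no rise and 1 fall without exposed array 2 or unexposed array 2, 2 rises and 1 fall without unexposed array 3, and no rise and 2 falls with the poly-A covariate.

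Of 23 macrophage genes, each read from its brightest probe set, Aif1, a calcium-binding protein of macrophages, was the 1 call, with 8.72, 7.99 and 8.97 in exposed and 9.91, 10.91 and 10.88 in unexposed arrays (-2.01). The other 22 did not pass, with Msr1 at -0.39, Fcgr3 at 0.21 and Mpeg1 at 0.29, and the median was -0.11. Over all genes, 18.7% passed. Of 3 dimmer probe sets of Msr1, a scavenger receptor, 2 fell in the fit of all probe sets (-0.57, adjusted p = 0.0098, and -1.23, adjusted p = 0.0101). The array means of the macrophage list lay between 7.45 and 7.86 in exposed and between 7.66 and 7.89 in unexposed testes. None of 20 interferon genes, 14 endothelial genes, 6 genes of MHC class II, 7 epididymal genes or 5 red blood cell genes passed in limma, and 1, 1, 1, 0 and 0 of them had an unadjusted p under 0.05. Among 8 genes of fat 1 fell, against 7.2% falls over all genes. It was Pck1, at -0.38, a call lost in 11 of 16 alternative settings. The array means of the epididymal list ran from 5.34 to 6.66 in exposed testes, the highest in array 2, and from 5.30 to 5.40 in unexposed testes. Car3, a marker of fat and muscle, was scattered in both groups, with 4.14, 8.32 and 5.23 in exposed and 4.31, 6.10 and 7.45 in unexposed arrays. Of 24 stress and immediate early genes, 2 rose, Klf6 at 0.67 and Ier2 at 0.39, against 11.5% rises over all genes, and the call of Ier2 was lost in 11 of 16 alternative settings. In the fit of all probe sets, dimmer ones of Hspa1b rose (0.71 and 0.75) and a dimmer one of Klf4 fell (-0.88). The brightest of each did not pass (0.54 and -0.53). Of the dimmer Klf6 probe sets, that at 0.70 passed and those at 0.38 and -0.05 did not. The part that these tissues have in the results was not tested.

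The largest rises came from several kinds of genes. Hs6st2, a sulfotransferase of heparan sulfate, led with 8.73, 8.73 and 8.33 in exposed, against 7.51, 7.24 and 6.85 in unexposed arrays (1.40 ± 0.19, adjusted p = 0.00421). Ackr3, a scavenger receptor of chemokines, had 8.72, 8.52 and 8.5 in exposed, against 7.70, 7.57 and 7.70 in unexposed arrays (0.93 ± 0.10, adjusted p = 0.00303). Both genes stayed called in every alternative setting tried. That their groups do not overlap was required of every gene in this set. Mme, the membrane peptidase neprilysin, rose by 0.94, Pde8b, a phosphodiesterase of cyclic AMP, by 0.99, Cnn3, a calponin, by 0.86, and the transcription factor Sp3 by 0.85. Scara3 at 1.04, Afp, the fetal albumin, at 1.03, Epdr1 at 0.89, Sbk1, a kinase, at 0.87, Dkc1, a pseudouridine synthase, at 0.86 and the unnamed transcript 4930486L24Rik at 1.08 complete the 12 largest. The other probe sets of Afp stood at 0.05, 0.64 and 0.15 and did not pass. Among the 12 largest falls, besides the packaging genes, Cst13 and Fam71b, were Prss52, a serine protease, at -3.55, Oxct2a, a testis enzyme of ketone body use, at -3.43, and Actrt3, an actin-related protein, at -3.34. The transcripts 1700016C15Rik at -4.01, 1700015G11Rik at -3.78 and 1700012A03Rik at -3.39 complete that set. The other probe set of Actrt3 stood at -0.05 and did not pass.

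Genes of the X chromosome rose more often than autosomal genes, a split looked at after the values were seen. X-linked genes are silenced in spermatocytes from pachytene on, and many are expressed in spermatogonia and Sertoli cells. Of 532 tested X-linked genes, 135 rose (25.4%) and 46 fell (8.65%), with a median of 0.20, against 1727 rises (11%) and 1126 falls (7.16%) and a median of 0.05 among 15731 autosomal genes. Single autosomes ranged from 9.08% rises on chromosome 11 to 14.3% on chromosome 18. The mean of the X-linked genes was 7.74, 7.68 and 7.72 in exposed arrays, against 7.65, 7.62 and 7.68 in unexposed arrays, so the groups touch at the second decimal. Tex11, an X-linked gene of meiotic recombination, read 8.56, 8.44 and 8.32 in exposed, against 7.73, 7.55 and 7.74 in unexposed arrays (0.77). Dkc1 and Hs6st2 also lie on the X, as do Tsc22d3, a glucocorticoid-induced leucine zipper protein, at 0.71, Hccs, which attaches haem to cytochromes, at 0.67, and Bgn, a matrix proteoglycan, at 0.66. These last 3 and Tex11 were named after their values were seen. The X-linked share of rises exceeded the autosomal one in each of the 16 alternative settings, in which it ran from 6.2% to 35.5%, with 8.08% against 2.42% without exposed array 2, 6.2% against 2.02% without unexposed array 2 and 10.2% against 3.22% with the poly-A covariate.

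**Figure D5:**
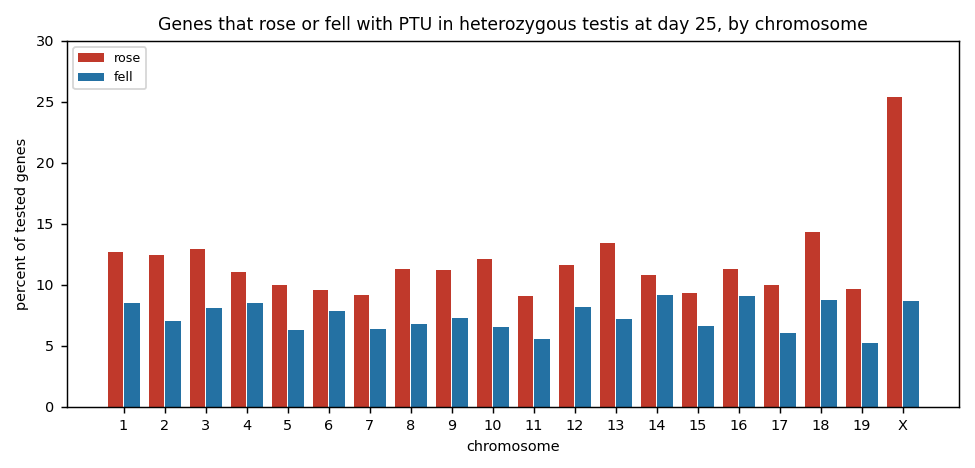
Percent of tested genes on each chromosome that rose or fell with PTU in heterozygous testis at day 25. The X stands at 25.4% rises, above all autosomes, whose shares of rises lie between 9.08% and 14.3%.

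The effect of PTU in heterozygous testes stood between those in the other genotypes in number of calls. In homozygous testes, 11615 genes passed (71.2%), and in wild type testes none did at the adjusted threshold, with 978 genes (6%) at an unadjusted p under 0.05. The difference of the PTU effect, heterozygous minus homozygous, passed for 7744 genes (47.5%, with 3721 or 22.8% higher and 4023 or 24.7% lower), and that of heterozygous minus wild type for none, with 2981 (18.3%) at an unadjusted p under 0.05 and a lowest adjusted p of 0.139. An effect in heterozygous testes that differs from that in wild type was therefore not shown for any single gene by this fit. With array weights, 2003 genes passed for heterozygous minus wild type, and 945 without unexposed heterozygous array 1. Tnp2 differed by -4.32 in heterozygous, -7.28 in homozygous and -1.04 in wild type testes, and Tnp1 by -3.61, -7.64 and -0.68. For Tnp1 the heterozygous minus homozygous difference passed (4.03, adjusted p = 0.00879), and for Tnp2 it did not (2.97, adjusted p = 0.0715). This difference passed as higher in heterozygous testes, with a smaller decrease there, for 18 of the 26 elongating spermatid genes, and it passed as higher for 25 of the 29 round spermatid and 24 of the 29 pachytene genes. It passed as lower for 17 of 23 spermatogonial genes, and as higher for 2, and as lower for 11 of 31 matrix genes, and as higher for 1. The exposed homozygous group holds 2 arrays, with Spink8 at 12.92 and 12.75. Leaving both out of the fit raised the heterozygous count to 4445, which held all of the 3042.

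Unexposed heterozygous testes were themselves higher in spermatid genes than unexposed wild type testes, and both comparisons below share heterozygous arrays with the PTU effect. Elongating spermatid means were between 10.90 and 12.16 in unexposed heterozygous and between 9.09 and 10.49 in unexposed wild type arrays. Unexposed homozygous arrays, between 10.95 and 11.50, lay within the unexposed heterozygous range. Exposed heterozygous arrays, with 8.60 to 9.92, overlapped unexposed wild type arrays. Tnp2 averaged 8.54 in exposed heterozygous, 12.85 in unexposed heterozygous and 9.01 in unexposed wild type testes. Unexposed heterozygous minus unexposed wild type passed for 3680 genes (22.6%), with 1356 (8.32%) higher and 2324 (14.3%) lower in heterozygous testes. That difference was 3.84 for Tnp2, -1.10 for Hs6st2 and -0.52 for Gja1. Exposed heterozygous minus unexposed wild type, added after the values were seen, passed for no gene, with 1136 at an unadjusted p under 0.05 (6.97%), and was -0.47 for Tnp2, 0.30 for Hs6st2 and 0.03 for Gja1. The poly-A mean also differed between these groups, at 6.16, 6.00 and 6.66 in unexposed heterozygous and 7.28, 7.21 and 7.49 in unexposed wild type arrays. In unexposed homozygous arrays it was 5.83, 6.37 and 6.65. With the poly-A mean as a covariate 11 genes passed for unexposed heterozygous minus unexposed wild type. The part of the poly-A mean in these differences was not tested further.

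At day 15, before spermatids form, PTU changed few genes in heterozygous testes. Of 16710 genes tested on the other array type, 95 passed (0.569%), 32 higher (0.192%) and 63 lower (0.377%), with 2264 (13.5%) at an unadjusted p under 0.05. No tested member of the 5 germ cell lists was among the 95, and the medians were 0.03 for spermatogonia, -0.07 for early meiosis, -0.60 for pachytene, -0.13 for round and 0.02 for elongating spermatid genes. The packaging genes were near 0, with Tnp1 at 0.15, Tnp2 at 0.02, Prm1 at -0.18 and Prm2 at 0.07, none passing. Tnp1, Tnp2 and Prm1 read between 5.08 and 5.80 in the heterozygous arrays of day 15, around the filter value of 5.56. A fall in them could hardly have shown at that level. The 9 genes below, chosen because earlier results named them at day 15, passed at day 15 and did not pass at day 25. They are a part of the 95, and how many of the 95 passed at day 25 is not given here. Clca3a2 (0.73 at day 15 and 0.01 at day 25) and Mpeg1 (-1.05 and 0.29) likewise passed at day 15 only. Ppp2r2c, a regulatory subunit of a phosphatase, stood at 0.86 at day 25 (adjusted p = 0.0512) and fell by 1.63 at day 15. Hsd17b3 stood at -1.22 at day 25 and rose by 1.71 at day 15, so both had opposite signs at the 2 ages. At day 25 Tsx, a Sertoli gene, stood at 0.20, Bbox1, of carnitine synthesis, at 0.39, Emb, a carrier partner, at 0.24 and Aqp8, a water channel, at 0.06, while at day 15 they fell, with differences of -2.07, -2.37, -1.63 and -1.17. Sfrp1, a WNT antagonist, stood at 0.28 at day 25 and rose by 1.04 at day 15, Akr1c14, a steroid reductase, at 0.39 and 1.2, and Lpl, the lipoprotein lipase, at 0.11 and 1.21. The ages were measured on different arrays and normalized apart, so no test was made between them.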

How the data were processed

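Total RNA of the testis was hybridised to 2 Affymetrix array types, 17 arrays at day 25 and 18 at day 15. The authors deposited log2 intensities, made with RMA per the submitters' processing notes, whose version the sources used here do not give. They were used unchanged, and lie between 2.81 and 15.1 at day 25. Of 45101 probe sets of day 25, 34945 have 1 gene symbol in the platform annotation, 932 several and 9160 none, and 64 are controls. A gene was read from its brightest probe set among those with a single symbol. The test took 16304 of 18193 genes, those with at least 2 arrays over 4.76, the 25th percentile of the whole table (16710 of 19938 at day 15, over 5.56).

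Both ages were fitted separately with limma 3.58.1 (R 4.3.3), with a mean for each of the 6 groups, contrasts between them, eBayes, Benjamini-Hochberg adjustment over all tested genes and a threshold of 0.05. Standard errors are the moderated ones, from the spread pooled over the 6 groups of an age. Values for several probe sets of a gene come from a fit of all probe sets. The number of arrays limits the precision. Members and gene lists were chosen with earlier results of these data known, and a list is described by its counts and its median.

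Genes are named by rule: Akt1 and Akt2, the 12 largest rises and 12 largest falls without overlap between arrays, up to 4 members of each list with the smallest p, the 5 smallest p of each difference between genotypes, marks of other tissue, and genes that earlier results named at day 15. Others are said to be named after their values were seen. The labels do not say whether the sample numbers pair arrays. For the heterozygous arrays of day 25 the same-number correlations of residuals (-0.32, -0.28 and 0.28) were not all above 0.1. They were above 0.1 for the heterozygous arrays of day 15 (0.44, 0.44 and 0.39) and the wild type arrays of day 25 (0.33, 0.23 and 0.40). Such correlations of few arrays cannot establish pairing. Exposed array 2 and unexposed array 1 of the heterozygous groups of day 25, with different numbers, reached 0.57. The number as a block gave 127 calls in place of 95 at day 15 and 0 in place of 0 for wild type testes at day 25. Tested on simulated data with 16304 genes, the fit found 12%, 48%, 84% and 98% of genes changed by 0.3, 0.5, 1 and 2 log2 in the heterozygous PTU effect, with 9 false calls, and 2%, 12%, 64% and 90% for heterozygous minus wild type, with 2. The simulated noise was drawn independently for each gene and array. Real arrays share variation across genes, as the residual correlations above show, so these shares and false calls may not hold for them. Chromosomes come from RefSeq on GRCm38.p6 (32 tested genes unplaced). Hsd3b6, Hba-a1 and Hbb-b1 had no value at day 25.

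The alternatives dropped the filter or set it at the 50th percentile, took every probe set, normalized by quantiles, weighted the arrays, used the sample number as a block, fitted the groups alone, took the poly-A control mean or the beta-actin 3' minus 5' difference as a covariate, and left out each array. Leaving out both exposed homozygous arrays, and the block for wild type testes, were chosen after seeing the data.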

Additional observations from a re-analysis of the deposited data

Results flagged for a closer look

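The difference of the PTU effect between heterozygous and homozygous testes at day 25 had the smallest p in 5 genes that were nearly at the same low level in all groups but the exposed homozygous one. The difference, heterozygous minus homozygous, was -4.09 for Cldn8, a claudin of epithelia, which averaged 3.87 in exposed and 3.53 in unexposed heterozygous testes and 7.80 in exposed and 3.37 in unexposed homozygous testes (limma adjusted p = 2.58e-07). It was -3.57 for Clca3a2 (adjusted p = 1.45e-08), -2.70 for Gm16136 (adjusted p = 9.78e-07) and -2.32 for Khdc1a (adjusted p = 4.71e-07), with exposed heterozygous means of 3.64, 4.51 and 3.45. For Rgn, a calcium-binding protein, it was -1.88 (adjusted p = 1.22e-06). Rgn read 4.71, 4.88 and 4.66 in exposed, against 4.43, 4.46 and 4.39 in unexposed heterozygous arrays, a rise of 0.33, against a rise of 2.21 in homozygous testes. The filter asked for at least 2 arrays over 4.76, and the exposed homozygous group holds 2 arrays. Cldn8, Clca3a2, Gm16136 and Khdc1a averaged below 4.76 in both heterozygous groups. High values in the exposed homozygous group alone could thus bring them into the test, so their small p is no separate support. In both exposed homozygous arrays Spink8 was above 12, and the part of other tissue in these differences was not tested.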

How the results depend on the processing

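The count of 3042 genes called for PTU in heterozygous testis at day 25 was 2936 without a filter, 3158 with a filter at the 50th percentile, 3882 over every probe set, 2898 after quantile normalization, 3928 with array weights, 2880 with the beta-actin covariate, 2354 with the groups alone, 4445 without the 2 exposed homozygous arrays and 1251 with the poly-A covariate, which kept 39.6% of the calls. With the replicate number as a block it was 2593, though the labels do not say that the numbers pair these arrays. Leaving out each array gave 874 (without unexposed 2) to 3617 (without unexposed 1), with 956 without exposed 2, 1668 without unexposed 3, 2111 without exposed 1 and 2311 without exposed 3. Of 121 named genes that passed, 57 were called in every setting, none turned sign, and 78 were kept with the poly-A covariate, 64 without exposed 2 and 61 without unexposed 2. Heterozygous minus wild type gave 0 calls in the reported fit, 2003 with array weights and 0 to 945 on leaving out each array (1 without exposed 1, 945 without unexposed 1). Heterozygous minus homozygous (7744) gave 12075 over every probe set, 4875 with array weights, 1364 with the poly-A covariate and 5077 to 9151 on leaving out each array, the lowest without exposed homozygous 2, where the lone array is assumed to vary like the other groups. Unexposed heterozygous minus unexposed wild type (3680) gave 11 with the poly-A covariate and 1433 to 4046 on leaving out each array (1503 and 2399 without unexposed heterozygous 2 and 3, 1433 without unexposed wild type 3). Exposed heterozygous minus unexposed wild type gave 0 in every setting run. At day 15 the 95 calls were 127 with the replicate number as a block, 499 with array weights and 31 with the groups alone. On leaving out each array they ran from 3 to 414. They were 3, 47 and 414 without exposed 1, 2 and 3, and 41, 33 and 35 without unexposed 1, 2 and 3. Some genes that did not pass changed sign. Hr was -0.092 and Star 0.021 with array weights, Car3 0.018 with the beta-actin covariate, and Lpl -0.080 and Sfrp1 -0.014 with the poly-A covariate. On leaving out each array, Aqp8 ran from -0.12 to 0.21, Car3 from -1.27 to 0.82, Hr from -0.14 to 0.19, Lpl from -0.031 to 0.22, Spink8 from -0.046 to 2.06 and Star from -0.44 to 0.19.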
